A study of Mus musculus with 9 samples.

Results

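Beige adipocytes of F1 mice, the offspring of the inbred strains C57BL/6J (B6) and 129X1/SvJ (129), were compared with beige adipocytes of B6 mice. The F1 cells carry a 129 copy of each autosome in place of a B6 copy, so the comparison describes which transcripts were higher or lower where that copy was present. It used 6 of the 9 libraries of the study, 3 from F1 and 3 from B6, all chosen by their labels. The 3 libraries of 129 cells are shown beside them as values, without a test.

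Cells of the stromal vascular fraction of inguinal fat, a subcutaneous depot, were differentiated in culture, and their poly(A) RNA was sequenced at day 7. Every group received the same agents. From confluence the medium held 1 µM rosiglitazone, 1 nM T3 and 850 nM insulin in 10% serum throughout, and during the first 48 hours also 1 µM dexamethasone, 125 nM indomethacin and 0.5 mM isobutylmethylxanthine. The series describes B6 as prone to obesity and 129 as resistant to it. All groups therefore shared a PPARγ agonist, thyroid hormone and a high dose of insulin. The labels give neither the sex and age of the mice, nor the direction of the F1 cross, nor whether replicate libraries stem from different mice or dishes. P-values then measure only the spread between these libraries, which may be technical. Because the RNA comes from whole cultures, fewer cells of a type and less RNA per cell cannot be told apart.

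Beige adipocytes are inducible fat cells that burn fuel for heat. Their hallmark is UCP1, a protein of the inner mitochondrial membrane that lets protons return to the matrix without making ATP. The cells form from precursors in white fat under the control of PPARγ and partner factors such as EBF2 and PRDM16, and their number in inguinal fat is known to differ between inbred mouse strains. In F1 cells both parental alleles of a gene share the same nucleus, and the values here sum the reads of both alleles.

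Levels were RPKM, reads per kilobase of exon per 1000000 assigned reads. Between 19130022 and 26931438 reads were assigned to genes in the B6 libraries and between 39686986 and 53410947 in F1, so every F1 library was deeper than every B6 library. The 129 libraries held 23710908 to 28473083, so F1 was deeper than both parents. The sample labels used here name no batch, and whether the groups also differed in handling was not tested. The adipocyte label held in both groups: adiponectin (Adipoq) was at 1461 to 1587 RPKM in B6 and 1324 to 1389 in F1, and the lipid droplet coat gene Plin1 at 446 to 504 and 472 to 483. Transcripts of the Y-linked genes Ddx3y, Eif2s3y, Kdm5d and Uty were present in all 6 libraries and none passed the test, while Xist stayed under 0.02 RPKM. By these transcripts the cells of both groups were male, though the labels do not give the sex. On the first principal component, which held 69.0% of the variance, B6 libraries lay between -17.7 and -11.1 and F1 libraries between 13.7 and 15.1. B6 replicate 2 stood apart on the second (12.7% of the variance, -11.6 against -3.47 to 6.54 in the other libraries). B6 replicate 1 had a mean of 4.24 on the log2(RPKM + 1) scale over the tested interferon response genes, against 2.64 and 2.89 in the other B6 libraries and 2.10 to 2.85 in F1. Genes at 0 are written as listed at 0, since Hmgcs1, an enzyme that most cells need, is listed at 0 in all 9 libraries.

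The test covered 11359 genes that reached 1 RPKM in 3 or more of the 6 libraries. Of these, 3089 (27.2%) passed limma's moderated test of log2(RPKM + 1) at a Benjamini-Hochberg adjusted p under 0.05. In F1, 1083 (9.53%) were higher and 2006 (17.7%) lower. This split depends on the scaling: higher genes made up 35.1% of the calls with the deposited values and 55.1% (1641 higher and 1338 lower) after rescaling the libraries by their median ratios. These shares, 9.53% higher and 17.7% lower, are the background for the counts of each gene list. The lists were chosen with earlier results of these data known, so their counts are description and not a test. The number of genes called also leaned on B6 replicate 1, without which 1840 genes passed, and without F1 replicate 3 the lower genes numbered 1315. In 5026 genes (44.2%) the 3 F1 and 3 B6 libraries did not overlap. Changes were mostly small, and 99 genes (0.872%) combined a called difference of at least 1 log2 unit with groups that did not overlap, 54 of them higher and 45 lower in F1. The median difference over all tested genes was -0.04 log2 units, and the median standard error 0.06. Fold changes on the log2(RPKM + 1) scale understate the change of genes near or below 1 RPKM. Of the called genes, 141 (4.56%) were under 1 RPKM in every library of one group and reached the filter through the other alone, so they had to differ and their calls count only as description. Among those with large differences they were 18 of 99. In the gene lists these were Cd1d2, Ifi202b, Gbp2b, Tpsab1 and Cited1, higher, and Mki67, Aldh1a3 and Wnt2, lower. In simulated libraries the test called too many unchanged genes of low RPKM, so single calls of small size at low levels are less certain than the threshold says. voom on the recovered reads, which came closer to the threshold there, called 2992 of the 3089 genes.

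**Figure D1:**
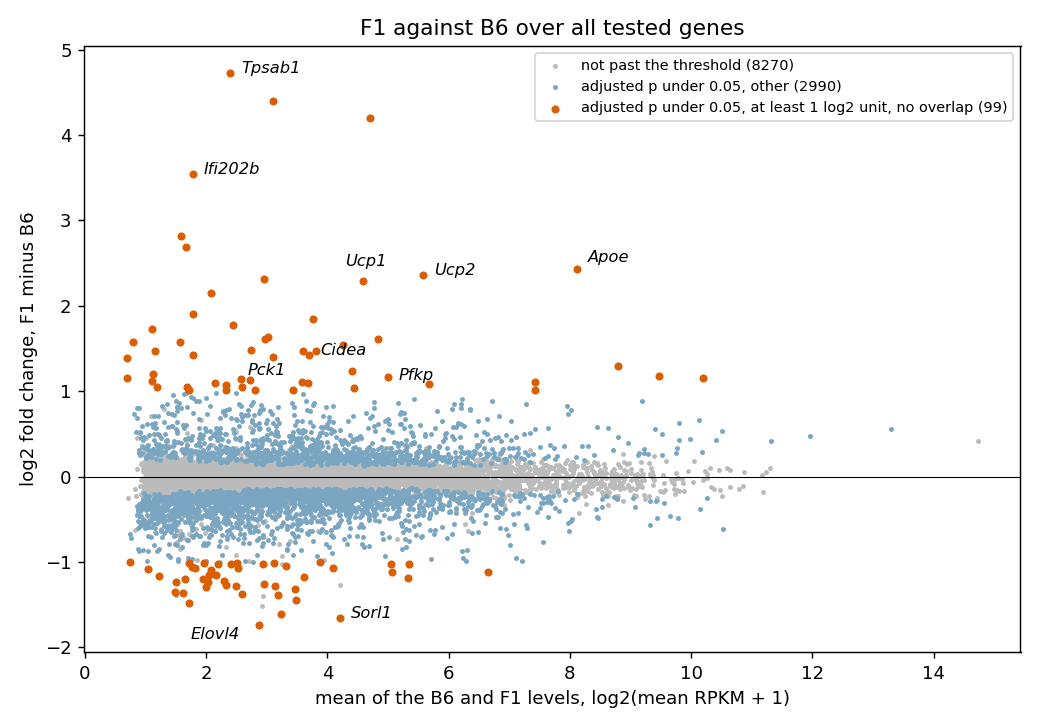
Difference between F1 and B6 (y axis, log2 fold change) against the mean of both groups' levels (x axis, log2 of the mean RPKM plus 1) for the 11359 tested genes. Orange points are the 99 genes past the threshold with at least 1 log2 unit and no overlap; Tpsab1 (4.72), Apoe (2.43), Ucp2 (2.36) and Ucp1 (2.30) lie among the highest, and Elovl4 (-1.73) and Sorl1 (-1.66) lowest among the named genes.

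The sequence before the transcription start is shown for 4 genes with large differences, since F1 cells hold this B6 reference promoter beside its 129 counterpart, whose sequence was not used here. They are the 250 bases before the start from RefSeq (GRCm38.p6, a later build than the mm9 of the expression values), 5′ to 3′ on the gene's strand: Ucp1 chr8:83290098-83290347 (plus strand), Ucp2 chr7:100493108-100493357 (plus), Apoe chr7:19699189-19699438 (minus) and Sorl1 chr9:42124298-42124547 (minus, the first of the starts listed). Capitals mark the core motif of nuclear factor I (NFI) proteins, TTGGC or its reverse complement GCCAA, searched on both strands. It occurs in 41.9% of the 27025 promoter stretches in that table and in 46% of the 8975 tested genes that could be matched.
Ucp1: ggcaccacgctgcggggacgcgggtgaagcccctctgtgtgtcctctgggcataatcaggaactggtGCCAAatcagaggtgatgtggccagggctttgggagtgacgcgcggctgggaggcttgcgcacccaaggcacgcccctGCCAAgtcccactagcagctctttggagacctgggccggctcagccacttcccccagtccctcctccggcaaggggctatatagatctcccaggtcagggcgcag
Ucp2: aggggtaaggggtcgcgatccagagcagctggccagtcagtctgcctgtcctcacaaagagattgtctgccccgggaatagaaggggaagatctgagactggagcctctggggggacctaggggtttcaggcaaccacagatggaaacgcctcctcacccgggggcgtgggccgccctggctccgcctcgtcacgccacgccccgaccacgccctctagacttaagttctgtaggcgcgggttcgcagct
Apoe: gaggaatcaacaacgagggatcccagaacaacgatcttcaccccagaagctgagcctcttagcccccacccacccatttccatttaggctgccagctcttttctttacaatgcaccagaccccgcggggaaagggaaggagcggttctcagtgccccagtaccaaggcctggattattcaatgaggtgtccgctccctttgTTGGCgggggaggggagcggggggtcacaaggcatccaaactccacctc
Sorl1: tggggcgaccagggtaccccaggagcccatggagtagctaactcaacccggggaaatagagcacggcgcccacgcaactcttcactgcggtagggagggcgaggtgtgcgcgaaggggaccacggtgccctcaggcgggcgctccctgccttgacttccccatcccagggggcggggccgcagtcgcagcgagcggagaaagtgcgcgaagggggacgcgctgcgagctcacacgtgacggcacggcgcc
The Ucp1 stretch held 2 cores, beginning 183 and 105 bases before the start, and the Apoe stretch held 1, beginning 49 bases before it. In the stretches of Ucp2 and Sorl1 these letters do not occur. A match describes the letters only.

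Both uncoupling proteins that rose did so by about the same fold. Ucp1 measured 9.39, 10.8 and 9.51 RPKM in B6, whereas F1 had 52.3, 50.6 and 54.2. Every F1 library was thus far above every B6 library, by 5.30-fold on the means (log2 fold change 2.30, SE 0.06, limma adjusted p = 2.66e-07), and the level in 129 cells was 62.7 ± 1.96 (SD, n = 3). An exact permutation test of 3 libraries against 3 cannot go below p = 0.1, which is what Ucp1 gave. Ucp2, a related carrier of the inner membrane that does not share the heat-making role of UCP1, measured 19.3, 22.6 and 18.7 RPKM in B6 and 109, 107 and 107 in F1. The F1 libraries again lay above all B6 libraries, by 5.33-fold (2.36, SE 0.07, adjusted p = 4.52e-07), and below the 129 level of 184 ± 3.65. Ucp3, a neighbour of Ucp2 on chromosome 7, went the other way and far less (5.33 ± 0.359 in B6, 4.46 ± 0.264 in F1; -0.21, adjusted p = 0.0355), and its call was lost when B6 replicate 1 or 3 or F1 replicate 2 or 3 was left out (adjusted p = 0.0547 to 0.128) and after rescaling (0.0826).

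The NFI family are transcription factors, of which NFIA is known to promote the brown fat programme. Of 4 tested genes 1 was called (25%, against 27.2% of all tested genes). Nfia was at 7.15 ± 0.462 RPKM in B6 and 7.60 ± 0.516 in F1 and did not pass, nor did Nfib (9.62 ± 0.185 and 9.50 ± 0.595) or Nfic (16.7 ± 0.835 and 14.9 ± 0.520; adjusted p = 0.0571). Nfix fell by 0.32 on the log2 scale (SE 0.07, adjusted p = 0.0111), from 24.6, 28.7 and 25.2 RPKM in B6 to 19.3, 21.2 and 21.7 in F1.

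Of 22 tested thermogenic genes, Ucp1 included, 7 were higher (31.8%, against 9.53% of all tested genes) and 3 lower in F1 (13.6% against 17.7%). Their median difference was -0.07, whereas their mean log2 level was above B6 (4.197 to 4.204) in each F1 library (4.33 to 4.396), so median and mean differ in sign. The rises of Ucp1 (2.30) and Cidea (1.42) weigh heavily in this mean, and 12 of the 22 genes did not pass. The mean therefore does not describe a rise of the whole list. Without B6 replicate 2, 5 were lower. Cidea, a lipid droplet protein that marks brown and beige cells, was at 6.33, 7.05 and 7.40 RPKM in B6 and 19.5, 19.1 and 22.1 in F1. It rose by 1.42 on the log2 scale (SE 0.07, adjusted p = 1.13e-05), and every F1 library was also above every 129 library (11.8 to 14.3). Cox7a1, the muscle and brown fat form of a cytochrome c oxidase subunit, rose from 187, 210 and 196 to 352, 351 and 314 RPKM (0.78, adjusted p = 0.000169), while 129 cells, at 187 to 222, were near B6. Acot2, a mitochondrial thioesterase, and Ebf2, a factor that commits precursors to the brown and beige fate, rose by 0.48 and 0.38.

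Elovl6, a fatty acid elongase, and Adrb3, the adipocyte β-adrenergic receptor, fell by 0.44 and 0.24 (adjusted p = 0.000418 and 0.00612). Ppargc1a, the mitochondrial coactivator PGC-1α, was at 8.32 to 9.05 RPKM in B6 and 6.71 to 8.24 in F1 (adjusted p = 0.0556), and Prdm16 at 1.49 to 1.65 and 1.13 to 1.40 (0.156), so neither passed. Among 53 nuclear genes of oxidative phosphorylation 3 were higher (5.66%) and 1 lower (1.89%), with a median of 0.02. The shares of all tested genes were 9.53% and 17.7%. Without B6 replicate 1 Cox7a1 alone passed, without F1 replicate 1 a single gene was higher, without B6 replicate 2 the lower genes were 3, and after rescaling 8 were higher. Of 20 citric acid cycle and pyruvate dehydrogenase genes 1 was higher (5%) and 2 were lower (10%). Both falls were lost without B6 replicate 1 or F1 replicate 2, and 1 without B6 replicate 3 or F1 replicate 3. Of 5 tested genes of creatine and calcium cycling 1 was lower (20%), the calcium pump gene Atp2a2 (-0.20, adjusted p = 0.014). It missed the threshold without B6 replicate 1 (0.0704) or F1 replicate 2 (0.0555), and after rescaling (0.0611).

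**Figure D2:**
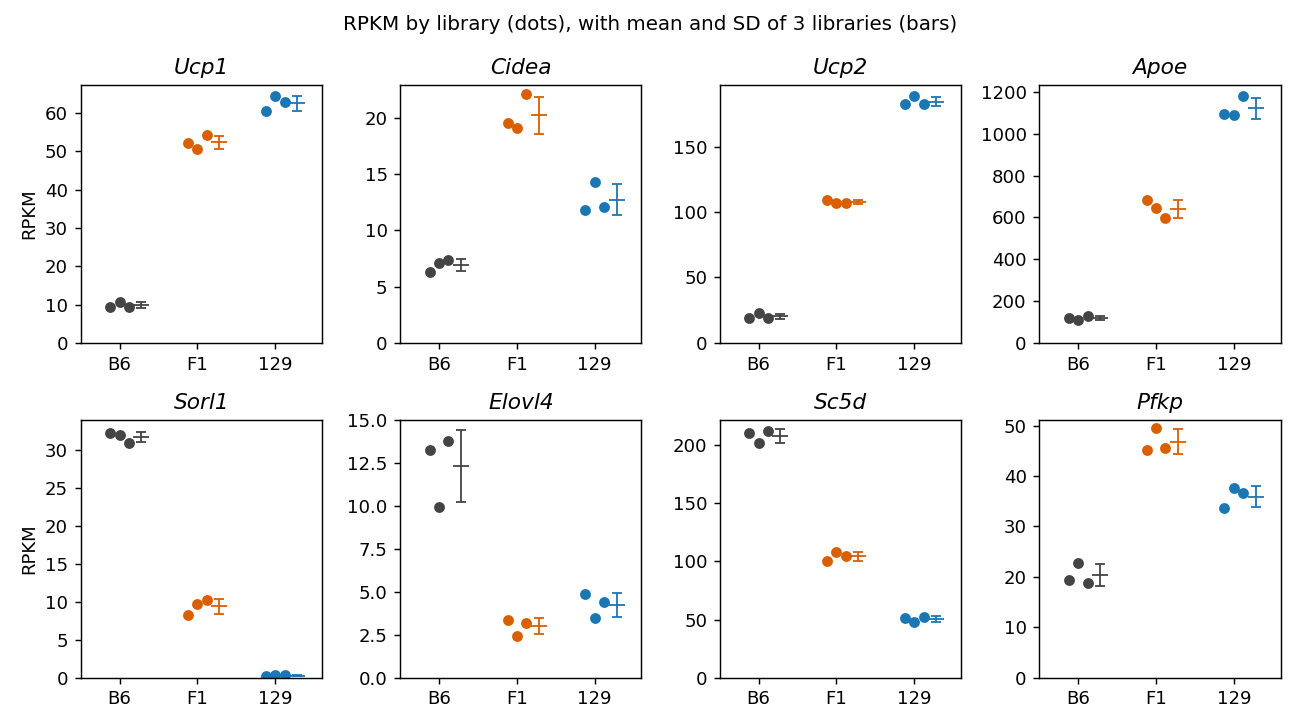
RPKM (y axes, starting at 0) in each library of B6, F1 and 129 cells for 8 genes; dots are libraries and bars the mean and SD of 3. In F1, Ucp1, Cidea, Ucp2, Apoe and Pfkp lay above all B6 libraries and Sorl1, Elovl4 and Sc5d below them, and F1 Cidea (19.1 to 22.1) and Pfkp (45.2 to 49.6) also exceeded every 129 library.

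Of 27 tested genes of the mature adipocyte 4 were higher (14.8%) and 6 lower (22.2%), shares near those of all tested genes, with a median of -0.10. Pck1, which makes the glycerol backbone of triglyceride in fat cells, rose from 7.44, 7.19 and 6.79 RPKM to 16.6, 15.7 and 17.5, a 2.32-fold difference (1.11, SE 0.06, adjusted p = 1.08e-05), and 129 cells were at 16.9 ± 1.09. Plin5, a coat protein that ties droplets to mitochondria, rose by 0.86 from 25.8 ± 0.976 to 47.6 ± 3.82 RPKM. Mogat1, an acyltransferase of triglyceride synthesis, was near 1 RPKM in B6 (1.16, 1.04 and 1.11) and at 4.37, 4.98 and 4.54 in F1. That difference was 1.42 (SE 0.06, adjusted p = 5.21e-06) with no overlap. Retn, the adipokine resistin, fell by 0.50 from 309 ± 12.5 to 219 ± 23.9 RPKM.

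In fatty acid and triglyceride synthesis 4 of 20 genes were higher (20%) and 9 lower (45%), against 9.53% and 17.7% of all tested genes. Without B6 replicate 1 or 3, 2 were higher and 7 lower, and 1 rise was left without F1 replicate 2 or 3. Me1, which supplies NADPH for fatty acid synthesis, fell from 1060, 988 and 1056 RPKM to 758, 705 and 762 (-0.48, adjusted p = 0.00157), and every F1 library was below every 129 library (888 to 1010). The desaturase gene Fads2 fell by 0.30. In fatty acid oxidation 6 of 21 genes were higher (28.6%), among them Acaa2 (0.46) and Hadhb (0.32), and 5 were lower (23.8%), among them Eci1 (-0.31). Without B6 replicate 1, 4 and 3 passed, and 3 falls were left without B6 replicate 3 or F1 replicate 2 or 3. Of 19 tested adipogenic transcription factors Ebf2 and Pparg, the master regulator of fat cells (91.2 ± 1.47 and 110 ± 6.45 RPKM; 0.27, adjusted p = 0.00784), were higher. Its partner Rxra (-0.32), Klf4 (-0.30) and Nr1h3 (-0.22) were lower. These shares (10.5% and 15.8%) are near those of all genes, and after rescaling 4 were higher and 2 lower.

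Genes of cholesterol synthesis fell. Of 23 tested genes 19 were lower in F1 and none higher (82.6% against 17.7% lower among all tested genes), with a median of -0.40; 18 were lower after rescaling and 17 without B6 replicate 1. Sc5d, which acts late in the pathway, measured 211, 202 and 212 RPKM in B6, 100.6, 108 and 105 in F1 and 47.7 to 52.6 in 129. It fell by 0.99 (SE 0.05, adjusted p = 1.13e-05) with no overlap. Hsd17b7, a reductase of the same branch, went from 42.6, 40.2 and 41.6 to 20.7, 21.7 and 21.5 RPKM (-0.93, adjusted p = 7.36e-06). Mvd, a decarboxylase of the mevalonate branch, fell by 0.67. Sc5d (mm9 chr9:42062260-42072383) lies near Sorl1 (mm9 chr9:41776572-41932372), which also fell. Whether the fall of Sc5d is local or shared with the pathway was not tested. Srebf2, which encodes the factor that drives the pathway, was at 19.8 to 22.0 RPKM in B6 and 19.6 to 19.9 in F1 and did not pass (adjusted p = 0.253).

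Apoe, whose product carries lipid out of cells and marks lipoproteins for uptake, was among the large rises. It measured 118, 109 and 130 RPKM in B6 and 684, 645 and 596 in F1, which is 5.40-fold (2.43, SE 0.08, adjusted p = 8.67e-07). The F1 libraries lay between all B6 libraries and all 129 libraries (1092 to 1180). Apoc1, its neighbour on chromosome 7, rose from 53.1, 51.7 and 56.1 to 100, 108 and 96.1 RPKM (0.90, adjusted p = 3.31e-05). Sorl1, a sorting receptor, went from 32.3, 31.98 and 31.0 RPKM to 8.29, 9.69 and 10.2, and was at 0.261 to 0.298 in 129. Its F1 mean was 0.296 of the B6 mean (-1.66, SE 0.07, adjusted p = 4.47e-06), and no F1 library reached a B6 library. Of all 17 genes for apolipoproteins and lipid transport 4 were higher (23.5%) and 7 lower (41.2%), against 9.53% and 17.7% of all tested genes. Without F1 replicate 2, 4 were lower, and rescaling turned the balance to 6 higher and 5 lower.

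**Figure D3:**
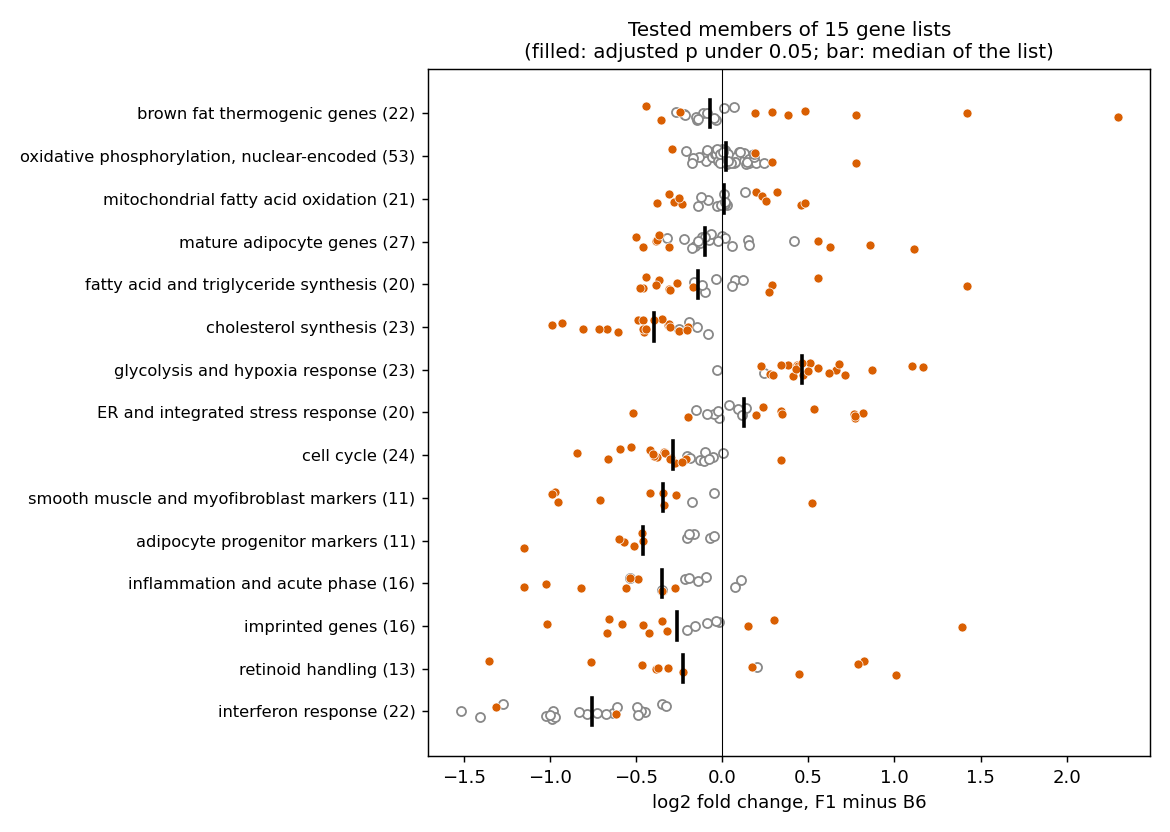
Log2 fold change, F1 minus B6 (x axis), of each tested member of 15 gene lists (y axis, number tested in brackets). Filled points passed an adjusted p under 0.05, open points did not, and bars are list medians; 21 of 23 glycolysis and hypoxia genes lie filled to the right of 0 and 19 of 23 cholesterol synthesis genes filled to the left, while most of the 22 interferon genes lie left of 0 but open.

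Genes of glycolysis and of the response to low oxygen rose together. Of 23 tested, 21 were higher in F1 and none lower (91.3% against 9.53% higher among all tested genes), with a median of 0.46; 22 were higher after rescaling and 15 without B6 replicate 1. Pfkp, a phosphofructokinase, measured 19.3, 22.8 and 18.8 RPKM in B6 and 45.2, 49.6 and 45.5 in F1 (1.17, SE 0.08, adjusted p = 3.62e-05). Ero1l, an oxidase of protein folding that is induced by hypoxia, went from 111, 139 and 100 to 241, 250 and 258 RPKM (1.10, SE 0.11, adjusted p = 0.000247). In both genes F1 exceeded every 129 library, and B6 replicate 2 was the B6 library nearest to F1. The oxygen sensor gene Egln3 (0.68) and the hypoxia target Ankrd37 (0.71) rose as well. Over the tested list the mean log2 level was 6.74, 7.01 and 6.70 in B6, 7.32, 7.35 and 7.32 in F1 and 6.96 to 7.07 in 129.

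Promoter stretches of all 23 listed genes were in the RefSeq table. The core of the hypoxia response element, ACGTG on either strand, occurred in 11 of them (47.8%), against 16.6% of all promoter stretches and 22.7% of the 8975 tested genes that could be matched, of 11359. They are shown for 3 members that rose (chosen after their values were seen), with this core in capitals: Ldha chr7:46845554-46845803 (plus), the last enzyme of anaerobic glycolysis, Pgk1 chrX:106186850-106187099 (plus), a glycolytic kinase, and Ero1l chr14:45318573-45318822 (minus), all GRCm38.p6 and 250 bases before the start.
Ldha: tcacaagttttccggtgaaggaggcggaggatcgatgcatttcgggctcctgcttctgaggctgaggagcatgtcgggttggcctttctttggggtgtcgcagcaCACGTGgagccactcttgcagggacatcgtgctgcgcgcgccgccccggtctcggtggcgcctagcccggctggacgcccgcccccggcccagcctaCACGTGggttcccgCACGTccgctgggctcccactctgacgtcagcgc
Pgk1: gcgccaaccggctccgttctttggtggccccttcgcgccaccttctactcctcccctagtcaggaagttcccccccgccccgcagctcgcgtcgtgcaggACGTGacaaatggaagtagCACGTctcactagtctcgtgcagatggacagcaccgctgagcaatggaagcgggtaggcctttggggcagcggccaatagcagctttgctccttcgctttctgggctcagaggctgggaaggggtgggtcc
Ero1l: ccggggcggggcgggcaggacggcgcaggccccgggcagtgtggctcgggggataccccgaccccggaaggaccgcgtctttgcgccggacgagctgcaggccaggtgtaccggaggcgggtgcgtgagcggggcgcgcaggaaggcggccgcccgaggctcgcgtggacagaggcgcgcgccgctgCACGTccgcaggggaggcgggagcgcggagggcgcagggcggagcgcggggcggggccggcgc
Ldha held 5 matches, overlapping ones counted on each strand, beginning 145, 144, 48, 47 and 34 bases before the start. Pgk1 held 2 and Ero1l 1. A match describes the letters only. The list was chosen to hold genes of the response to low oxygen, so its share with this core says nothing on F1 against B6. Ldha rose from 1111, 1255 and 1144 to 1614, 1597 and 1510 RPKM (0.43, adjusted p = 0.00523) and Pgk1 from 815, 1076 and 790 to 1454, 1394 and 1360 (0.66, adjusted p = 0.00463).

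**Figure D4:**
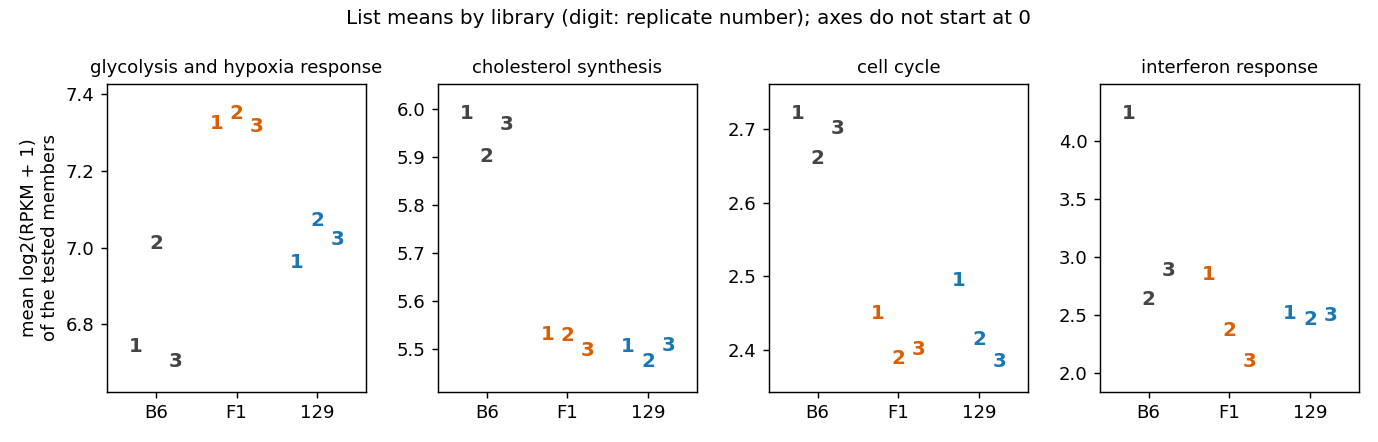
Mean log2(RPKM + 1) over the tested members of 4 lists (y axes, not starting at 0) in each library, drawn as its replicate number, for B6, F1 and 129. The groups of F1 and B6 do not overlap for glycolysis and hypoxia (7.32 to 7.35 against 6.70 to 7.01), cholesterol synthesis (5.50 to 5.53 against 5.90 to 5.99) and cell cycle (2.39 to 2.45 against 2.66 to 2.72), while for interferon response B6 replicate 1 (4.24) stands alone and F1 replicate 1 (2.85) lies within B6.

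Of 20 genes of the endoplasmic reticulum and integrated stress response 9 were higher (45%) and 2 lower (10%). The shares of all tested genes were 9.53% and 17.7%. Ddit3, which encodes the factor CHOP, rose from 41.3, 40.8 and 43.4 to 73.6, 73.8 and 67.6 RPKM (0.76, adjusted p = 4.6e-05), its target Trib3 by 0.82 and Fgf21, a hormone secreted under metabolic stress, by 0.77. The chaperone gene Hspa5 did not pass (0.14). Metallothioneins, which bind metal ions and are induced by glucocorticoids, rose: Mt1 was at 441, 558 and 421 RPKM in B6 and 1168, 1113 and 924 in F1 (1.18, adjusted p = 0.000402), and Mt2 rose by 1.29. Among 12 glucocorticoid-induced genes 5 were higher (41.7%) and 1 lower (8.33%), with 8 higher after rescaling and 3 without F1 replicate 1. Hmox1, the haem oxygenase, rose by 0.85 and Gpx3, a secreted glutathione peroxidase, by 0.57, while Gsta4 and Txnrd1 fell by 0.50 and 0.34. Of 20 antioxidant genes 4 were higher (20%) and 5 lower (25%). Without B6 replicate 1, 2 were higher and 3 lower, and without F1 replicate 3, 3 were lower. Nnt, whose coding sequence is partly deleted in C57BL/6J mice, was at 1.92 ± 0.173 RPKM in B6, 1.86 ± 0.136 in F1 and 3.34 ± 0.141 in 129 and did not pass between F1 and B6 (adjusted p = 0.764).

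Of 24 tested cell cycle genes 15 were lower (62.5%, against 17.7% of all tested genes) and 1 higher, with a median of -0.28 (11 lower without B6 replicate 1). Ccnd1, the cyclin that opens the cycle, fell from 12.5, 12.2 and 12.7 to 6.53, 6.68 and 6.27 RPKM (-0.84, SE 0.05, adjusted p = 1.59e-05), and Rrm2, which makes nucleotides for replication, by 0.66. The cell cycle inhibitor gene Cdkn1a fell too, by 0.40. Of 11 tested smooth muscle and myofibroblast markers 8 were lower (72.7%) and 1, Cyr61, higher (0.52). Actg2, a smooth muscle actin, went from 4.71, 4.41 and 4.66 to 1.67, 1.87 and 1.94 RPKM (-0.99, adjusted p = 2.61e-05), with no overlap. Calponin (Cnn1) fell by 0.95. The summed level of the 12 markers was 344 to 379 RPKM in B6 and 319 to 336 in F1.

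Among 11 tested adipocyte progenitor markers 6 were lower (54.5%, against 17.7% of all tested genes) and none higher. Without B6 replicate 1, 4 were lower. The summed level of the 13 markers was 717 to 863 RPKM in B6 and 549 to 639 in F1. Cd34, a surface protein of precursors, fell from 17.0, 16.2 and 17.1 to 11.2, 11.8 and 11.4 RPKM (-0.51, adjusted p = 0.000166), although 129 cells had 23.1 to 24.3. Icam1, an adhesion protein, fell by 1.15 from 5.30, 4.96 and 5.21 to 1.80, 2.03 and 1.51 RPKM (adjusted p = 3.83e-05). The main mesenchymal marker Pdgfra did not pass (40.2 to 48.4 and 38.6 to 45.4 RPKM). The part of these markers in the differences of adipocyte genes was not tested. Of 7 tested beige and brown lineage markers 4 were lower (57.1%), among them Tbx15 (-0.34). The 1 higher marker (14.3%) was Cited1, at 0.64 to 0.72 RPKM in B6 and 1.10 to 1.49 in F1. It reached the filter through F1 alone. After rescaling, or without F1 replicate 2 or 3, the list had 1 lower gene, and Cited1 no longer reached the filter without any 1 of the F1 libraries.

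Inflammatory and acute phase genes fell in 8 of 16 cases (50%, against 17.7% of all tested genes) and rose in none. Complement C3 went from 164, 153 and 171 to 108, 113 and 109 RPKM (-0.56, adjusted p = 0.000283), the chemokine gene Cxcl5 fell by 1.02 and Lcn2, an iron-binding acute phase protein, by 0.82. Interferon response genes had a median of -0.76 over 22 tested, but Gbp2 and Gbp3 alone passed (9.09%). Without B6 replicate 2, 7 genes passed, 1 without B6 replicate 3 and 0 with any single F1 library left out. More of them were called lower with the replicate number as a block, as given in the closing section. B6 replicate 1 was high in this list: Ifit1, an antiviral effector, was at 28.3, 5.21 and 5.55 RPKM in B6 and 5.58, 2.15 and 1.46 in F1, and did not pass (adjusted p = 0.0929). Gbp3, a guanylate-binding protein, was at 32.1, 8.74 and 11.8 in B6 and 7.50, 5.16 and 4.15 in F1 (-1.31, SE 0.40, adjusted p = 0.042). It passed without B6 replicate 1, with a smaller difference (-0.79, adjusted p = 0.0289), and missed the threshold when B6 replicate 3 (0.0571) or any F1 library (0.0617 to 0.131) was left out.

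Of 12 tested macrophage markers 1 passed (8.33%, against 27.2% of all tested genes). Trem2, a lipid-sensing receptor of macrophages, was at 0.952, 1.10 and 1.00 RPKM in B6 and 8.53, 7.78 and 7.56 in F1, 7.82-fold higher (2.15, SE 0.06, adjusted p = 4.52e-07), and at 14.5 to 17.3 in 129. The other 11 tested of 13 macrophage markers did not pass, including Cd68 (2.86 to 3.90 and 2.67 to 3.60 RPKM), though 2 were lower without F1 replicate 2. The summed level of the list was 51.3 to 64.4 in B6 and 52.6 to 72.4 in F1. Endothelial markers were low, and 5 of 9 were under 1 RPKM in all 6 libraries. The 3 that were tested, Tek, Eng and Pecam1, fell by 0.24 to 0.40, while 17.7% of all tested genes were lower. Summed levels were 10.7 to 11.7 RPKM in B6 and 8.37 to 8.76 in F1. Eng was lost without F1 replicate 3 (adjusted p = 0.058). Pecam1 was lost when any library but B6 replicate 2 was left out (up to 0.14 without B6 replicate 1), and after rescaling (0.067). Krt19 was the only epithelial marker of 7 above 1 RPKM and rose by 0.89. No lymphocyte or mesothelial marker reached the filter, and their summed levels were under 1 RPKM in every B6 and F1 library. The antigen presentation list (MHC class I) had 14 tested members, with 2 falls (14.3%) and a rise of Cd1d2 (7.14%), which reached the filter through F1 alone. Without B6 replicate 2, 6 fell, and after rescaling none did. Tubb3, a neuronal tubulin, fell from 6.402, 7.83 and 5.28 to 2.19, 2.28 and 2.09 RPKM with no overlap (-1.22, adjusted p = 0.00019), and 129 cells had 1.17 to 1.43.

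Several of the largest rises were in genes with almost no reads in B6. A gene was called absent from a parental strain where all 3 of its libraries were under 0.1 RPKM and all 3 of the other parent at 1 RPKM or more, a rule that does not use F1. It named 10 genes for B6, and their F1 means were 0.135 to 0.799 of the 129 means, with a median of 0.467. Only 4 of the 10 reached the filter, and all of those were called. That they passed the filter through F1 alone means that they had to differ, so their calls count as description.

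Tpsab1 (mm9 chr17:25480190-25482507), a mast cell tryptase, was listed at 0, 0 and 0.0624 RPKM in B6, at 29.9, 23.2 and 25.04 in F1 and at 51.9 to 61.1 in 129. Of the 9 mast cell markers 7 were under 1 RPKM in all 6 libraries, and Mcpt4, Tpsb2 and Ms4a2 were listed at 0 in each. The protease gene Cpa3, another mast cell marker, was at 2.20 to 2.50 RPKM in B6 and 1.79 to 2.11 in F1 and did not pass. Summed over the list, levels were 2.44 to 2.90 RPKM in B6 and 25.6 to 31.8 in F1, of which Tpsab1 alone made 23.2 to 29.9. Ifi202b (mm9 chr1:175892700-175912975), an interferon-inducible DNA sensor, had 0.0217, 0 and 0 RPKM in B6 and 12.1, 10.8 and 9.45 in F1, against 21.9 to 24.9 in 129. Gbp2b, a guanylate-binding protein, was listed at 0 in every B6 library and stood at 1.89, 1.47 and 1.54 RPKM in F1. Of the other genes absent from B6, Ly6k, Treml1, Mill1 and Psca, had F1 levels of 0.168 to 1.27 RPKM and were not tested.

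**Figure D5:**
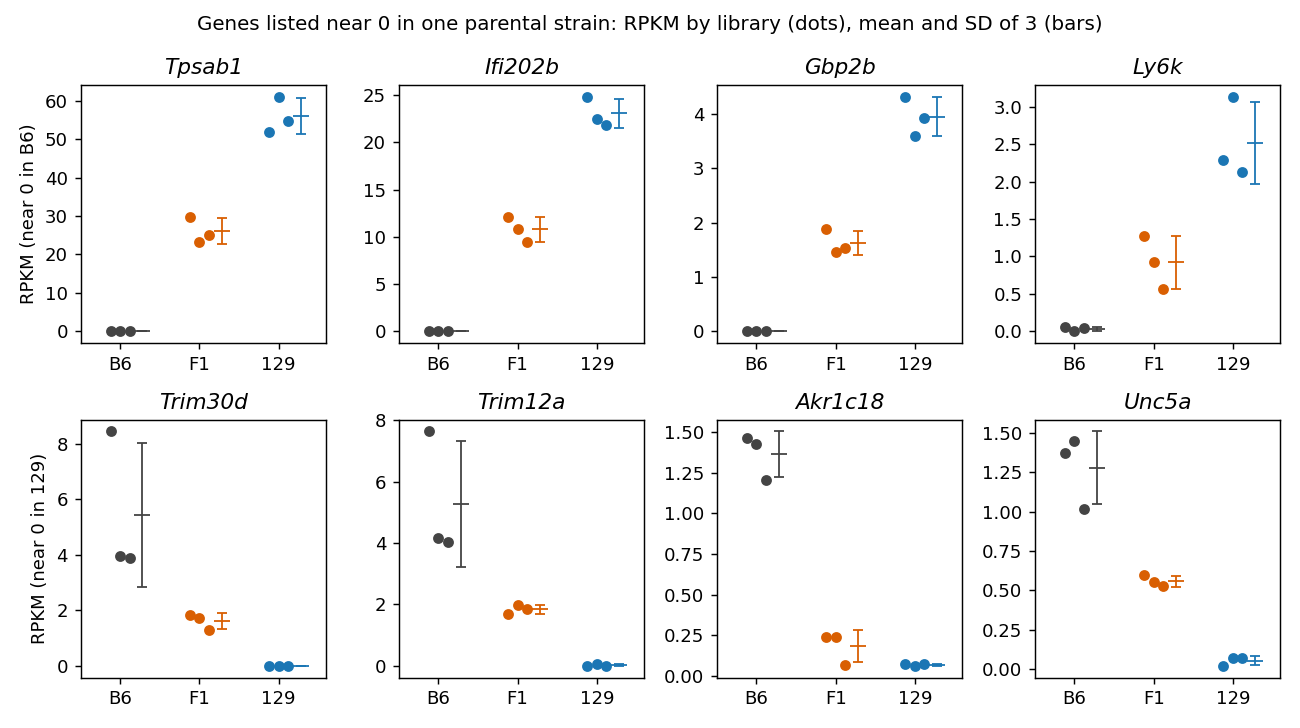
RPKM (y axes) by library (dots), with mean and SD of 3 (bars), for 4 genes near 0 in B6 (top) and 4 near 0 in 129 (bottom). In each panel the F1 mean lies between the parental means; the bottom left panels show B6 replicate 1 above the other B6 libraries for Trim30d (8.45) and Trim12a (7.64).

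Further large rises were in genes that were low but present in B6. Cd1d2, Gchfr and Abhd1 reached the filter through F1 alone. Cd1d2, which encodes an antigen-presenting molecule, was at 0.157, 0.168 and 0.0597 RPKM in B6 and 8.10, 6.44 and 6.48 in F1, 0.480 of the 129 mean. Gchfr, a regulator of tetrahydrobiopterin synthesis, was at 0.310, 0.332 and 0.118 in B6 and 8.17, 6.31 and 6.87 in F1, 0.498 of the 129 mean. Abhd1 (0.773 ± 0.0775 and 5.63 ± 0.266 RPKM), Palmd (1.94 ± 0.0672 and 9.07 ± 0.261) and Ccdc3, a secreted protein of fat and endothelium (6.16 ± 0.801 and 24.6 ± 1.32), rose by 1.90, 1.78 and 1.84. Their F1 means were 0.415, 0.544 and 0.729 of the 129 means. Eno1b, a copy of the enolase gene Eno1, had 5.97, 4.78 and 4.62 RPKM in B6 and 118, 108 and 107 in F1 (4.19, adjusted p = 7.17e-08). Its row joins copies on several chromosomes, and Eno1 itself was listed at 0.565 to 1.16 RPKM, so the assignment of reads between them is uncertain.

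In the other direction, 8 genes were absent from 129 by the same rule, and all 8 were called lower in F1, at 0.133 to 0.436 of the B6 mean with a median of 0.322. By that rule the B6 libraries of each gene met the filter whatever its F1 level, and the calls are given as description. In 4 of the 8 genes all F1 libraries were at 1 RPKM or more, so those 4 did not reach the filter through B6 alone. Trim30d and Trim12a, antiviral TRIM genes that lie near each other on chromosome 7, were at 8.45, 3.97 and 3.89 and at 7.64, 4.15 and 4.02 RPKM in B6. In F1 they were at 1.83, 1.74 and 1.29 and at 1.69, 1.96 and 1.85, without overlap (log2 fold changes of -1.23 and -1.10, adjusted p = 0.00591 and 0.00361). B6 replicate 1 was the highest in both, and without it the adjusted p were 0.000771 and 0.000275. Akr1c18, a steroid dehydrogenase, had 1.20 to 1.46 RPKM in B6 and 0.0679 to 0.240 in F1. Unc5a, a netrin receptor, fell by 0.54. Slfn8, a Schlafen gene on chromosome 11 that is not among the 8, was at 6.53, 1.90 and 2.24 RPKM in B6 and 1.01, 0.738 and 0.571 in F1 (-1.23, SE 0.31, adjusted p = 0.0215), with -0.80 without B6 replicate 1. It missed the threshold without any single F1 library (0.0501 to 0.0763).

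Further large falls lay outside those 8 genes. Elovl4, which makes very long fatty acids, went from 13.3, 9.95 and 13.8 to 3.33, 2.45 and 3.21 RPKM (-1.73, SE 0.13, adjusted p = 7.04e-05), and every F1 library was below every 129 library (3.496 to 4.86). Cyp2f2, a cytochrome P450, fell from 16.6, 12.01 and 17.95 to 4.001, 4.63 and 4.42 RPKM (-1.61), also below all 129 libraries (6.60 to 8.83). Ass1, an enzyme of arginine synthesis, was at 17.9, 16.7 and 17.9 RPKM in B6 and 5.36, 6.23 and 5.86 in F1 (-1.44, adjusted p = 4.01e-06), with 129 at 5.41 to 6.03. The cartilage matrix gene Comp fell by 1.39, the ferroxidase homologue Hephl1 by 1.38 and Igfbp2, which binds insulin-like growth factors, by 1.28. The sialyltransferase gene St3gal6 fell from 10.98 ± 1.79 to 3.99 ± 0.068 RPKM. None of these 4 had an F1 library within the B6 range.

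Of 13 tested retinoid genes 5 were higher (38.5%) and 7 lower (53.8%), against 9.53% and 17.7% of all tested genes. After rescaling 6 were higher and 6 lower. Aldh1a3, which makes retinoic acid, went from 3.45, 4.34 and 2.76 to 0.749, 0.738 and 0.767 RPKM, which reached the filter through B6 alone. Adh1, which oxidises retinol, fell from 236, 244 and 254 to 154, 137 and 140 (-0.76). Cyp26b1, which degrades retinoic acid, rose from 3.79, 4.40 and 3.62 to 8.86, 8.75 and 9.13 RPKM (1.01, adjusted p = 3.62e-05), above all 129 libraries (6.88 to 7.32). Rarres2, the adipokine chemerin, rose by 0.79.

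Imprinted genes are read from 1 parental allele, and the direction of the cross is not given. Of 16 tested, 8 were lower (50%, against 17.7% of all tested genes) and 3 higher (18.8%, against 9.53%). Peg10 rose from 3.67, 5.48 and 3.86 to 12.3, 12.5 and 13.9 RPKM (1.40, adjusted p = 0.000131), with 129 at 13.3 to 15.5. Plagl1 fell from 4.81, 4.43 and 4.40 to 1.65, 1.85 and 1.73 (-1.02, adjusted p = 2.13e-05), below 129 (2.16 to 2.31), and Mest fell by 0.67. With B6 replicate 1 or 3 or F1 replicate 2 or 3 left out, 1 rise was called.

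Extracellular matrix genes were higher in 4 (14.3%) and lower in 7 (25%) of 28 cases, or 6 and 5 after rescaling. These shares are near those of all tested genes (9.53% and 17.7%), which also apply to the lists below. Among the matrix genes that fell were the elastic fibre gene Eln (-0.53) and the collagenase Mmp2 (-0.45). Without B6 replicate 1, 1 was higher and 4 were lower, 2 were higher without F1 replicate 1, 1 without B6 replicate 3 and none without F1 replicate 2 or 3. Of 17 lipolysis and adrenergic genes 3 were higher (17.6%) and 5 lower (29.4%), or 4 and 3 after rescaling. The largest fall was Pde4b, a phosphodiesterase of cyclic AMP (-0.60, adjusted p = 0.000829). No rise was called without B6 replicate 1 or F1 replicate 1, and 1 without B6 replicate 2 or 3 or F1 replicate 3. Without B6 replicate 1 or 3 or F1 replicate 2, 3 were lower. Of 15 clock genes 3 were higher (20%), with 7 after rescaling and 1 without B6 replicate 1 or F1 replicate 2 or 3. Of 13 immediate early genes 4 were higher (30.8%) and 1 lower (7.69%), a fall that was lost without any library but B6 replicate 3. The share of tested genes called ran from 21.9% on the X chromosome to 31.1% on chromosome 8, with none of the 4 tested Y genes.

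Set beside 129 cells, some F1 levels lay outside both parents. The F1 mean was over 2.0 times the B6 mean in 98 called genes, and in 33 of these every F1 library was above every 129 library, as in Cidea and Pfkp. It was under 0.5 of the B6 mean in 120 called genes, and in 32 of these every F1 library was below every 129 library, as in Elovl4, Cyp2f2 and Plagl1. These counts share the F1 values on both sides and were not tested. The F1 libraries were also deeper than those of both parents.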

How the data were processed

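RNA of 3 B6, 3 F1 and 3 129 libraries had been sequenced from stranded poly(A) libraries, per the labels' protocols. The deposited values are RPKM by the authors, aligned with STAR to mm9 per the submitters' processing notes, while no source used here gives the read counter, the annotation or versions. RPKM times exon length summed to 1000000 in each library over 24015 rows, and whole reads were recovered to within 0.1 read for 100% of values, which gave the depths. Of 24013 symbols, 27 had become dates and none of these is named. Differences of log2(RPKM + 1) were fitted with limma 3.58.1 in R 4.3.3, with a mean-variance trend, on the 6 libraries. Two-sided p-values were adjusted over all 11359 genes. On simulated data the test recovered large changes, missed most small ones and let unchanged genes make up more of the calls than the 0.05 threshold allows, mainly at low RPKM; voom on reads did so less.

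The members and the 40 gene lists were chosen with earlier results of these data known. Genes named are the 12 largest rises and falls with an adjusted p under 0.05, at least 1 log2 unit and no overlap, leaving out predicted genes and small RNAs, the uncoupling proteins, NFI genes, Nnt and sex-linked genes, up to 4 members of each list with the smallest p, and up to 8 genes absent from each parent. Adipoq, Plin1, Ppargc1a, Prdm16, Srebf2, Ldha, Pgk1, Hspa5, Nr1h3, Pdgfra, Cd68, Eno1, Hmgcs1, Mki67 and the markers listed at 0 were named after their values were seen. Replicates differed by 3.83 to 15.1 times counting noise (chi-square over degrees of freedom), so no library was a copy of another. Reads of both alleles are summed, and loss of 129 reads against the mm9 reference was not measured. Some genes that this rule names are not reported here. No list was tested as a set. Promoter stretches of 250 bases came from RefSeq, GRCm38.p6. Alternatives covered the pseudocount, the filter, scaling, the fit, recovered reads with voom, and each library left out.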

Additional observations from a re-analysis of the deposited data

How the results depend on the processing

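Ucp1 kept its rise and its call under every alternative run, with log2 fold changes of 1.95 to 2.42. The count of genes called was 3089 in the main comparison and 2063 to 3198 without each library other than B6 replicate 1, which gave 1840. Leaving out libraries in turn gave 709 to 1145 genes higher and 1131 to 2053 lower. Rescaling by median ratios gave 1641 higher in place of 1083. Pseudocounts of 0.1 and 5, no filter, a minimum of 5 RPKM, a fit on all 9 libraries and voom on recovered reads gave 2258 to 3582 calls. Same-numbered libraries of B6 and F1 deviated from their group means with correlations of 0.146, 0.023 and -0.101, so the numbers were not taken as pairs. With the replicate number as a block 2803 genes were called, and interferon response genes called lower went from 2 to 19 of 22. In that list replicate 1 had the highest mean log2 level in both groups (4.24 in B6, 2.85 in F1). The correlations cover all tested genes, and pairing within that list was not tested. Genes absent from B6 numbered 10, and 6 with a limit of 0.05 RPKM or 2 with at least 5 RPKM in 129. Those absent from 129 numbered 8, and 4 with a limit of 0.05, 14 with 0.2 or 1 with at least 5 RPKM in B6. Of genes that did not pass, the direction reversed after rescaling for Nfib (0.039), Nnt (0.0088) and Uty (0.024). It also reversed with a library left out for Nfib (-0.064 to 0.0080), Nnt (-0.067 to 0.016), Kdm5d (-0.045 to 0.071) and Sox9 (-0.062 to 0.078). The log2 fold change of genes near 0 in B6 depends on the scale, and Tpsab1 went from 4.72 to 9.73 with voom. The causes were not tested. Tpsab1, Ifi202b and other genes that reached the filter through F1 alone could not be tested without an F1 library, because fewer than 3 libraries then reached 1 RPKM. Over genes with at least 20 reads, replicates varied beyond counting noise, while genes with few reads, such as Akr1c18 in F1 (4 to 15 reads), are limited by counting as well.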
